A study of Mus musculus with 4 samples.

Results

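The genes described here encode 8 proteins that build or maintain the photoreceptor outer segment: Prph2, Rom1, Cdhr1, Prcd, Abca4, Fscn2, Rp1 and Tulp1. They are a list of names picked for their role in the outer segment, with earlier results of these data known, and all 8 were found. They account for 8 of the 13452 Ensembl genes in the deposited isoform table, for 20 of its 44325 isoforms and for 1778829 counts. The data came from long-read nanopore sequencing of single-cell cDNA from papain-dissociated retina of wild-type male mice, strain C57BL6/J. Of 4 libraries, 2 were not enriched (1 from postnatal day 40, 1 with no age in its label), 1 carried the label CD73 enrichment (postnatal week 8) and 1 the label CD90.2 enrichment (postnatal month 4). For CD73 the protocol speaks of depleting positive cells with magnetic beads, and the design text of fluorescence sorting, so the direction of that enrichment is not settled by the labels. No library carried a mutation or a drug treatment, and the labels name no number of mice per library.

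The outer segment is a modified cilium packed with membrane discs, where light is captured. In rods the discs are closed and stacked inside the plasma membrane, and in cones they stay continuous with it. Peripherin 2 (Prph2) and Rom1 are tetraspanins that assemble at the disc rim and bend the membrane. Cadherin-related 1 (Cdhr1) sits at the base where new discs form, and Prcd is a small disc membrane protein. Abca4 is a rim transporter that clears retinoid by-products of bleaching. Rp1 binds the microtubules of the axoneme, fascin 2 (Fscn2) bundles actin, and Tulp1 is needed to move proteins into the outer segment. Mutations in genes of this group cause inherited retinal dystrophies such as retinitis pigmentosa, cone-rod dystrophy and Stargardt disease.

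The table gives whole-number counts for 6 cell classes: rods, cones, bipolar cells, amacrine cells, retinal ganglion cells (RGC) and Müller glia. Each class is 1 pooled column that names no library, so no class has a replicate, no difference was tested, and ages and enrichments cannot be compared. Column totals ran from 3509890 counts in ganglion cells to 55437340 in rods. Levels are counts scaled to a column total of 1000000 (CPM), with exact Poisson 95% intervals, and ratios and shares have exact binomial 95% intervals. These intervals cover counting error only, and they take every count as independent. Several counts may come from 1 molecule, in which case the intervals are too narrow. A count of 0 allows up to 3 counts, which is 0.0541 CPM in rods, 0.411 CPM in cones and 0.855 CPM in ganglion cells. Fewer cells of a type in a column and less RNA per cell cannot be told apart. Of 5 rod markers and 6 markers for each other class, all were highest in their own column for rods, cones, bipolar, amacrine and ganglion cells, and 5 of 6 were for Müller glia. The 5 rod markers (Gnat1, Pde6a, Nrl, Nr2e3, Cnga1) were also counted outside rods. They stood at 3.47% to 6.84% of their rod level in cones, 1.54% to 2.11% in bipolar cells, 0.371% to 0.969% in amacrine cells and 0.984% to 7.86% in Müller glia, and all 5 were at 0 in ganglion cells. Their summed level was 4545 CPM in rods, 204 CPM in cones, 185 CPM in Müller glia, 81.6 CPM in bipolar cells and 32.3 CPM in amacrine cells. The Müller glia column also held 8878 CPM summed over 6 pigment epithelium markers (Rpe65, Ttr, Lrat, Best1, Rgr, Mlana), against 38.5 CPM in rods. In that column 1 of the 6 had 0 counts. The sum was not split by gene, so it does not show how many of the markers carried it. Whether Müller glia express any of these markers themselves was not tested.

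The 8 genes made up 2.93% of all counts in rods and 0.804% in cones. Müller glia followed with 0.326%, bipolar cells with 0.225%, amacrine cells with 0.0200% and ganglion cells with 0.0113%. Rods were the highest column for 7 of the 8 genes, the exception being Prcd, whereas 23.05% of all genes with at least 10 counts were highest in rods. Cones came next for these 7 genes. Cdhr1 is the weakest of the 7 calls, since its rod and cone intervals overlapped and under median-of-ratios scaling its cone level was the higher. All of Prph2, Rom1, Cdhr1, Rp1 and Prcd were counted on 1 isoform each, and 3 genes had more: Tulp1 and Fscn2 with 2 isoforms and Abca4 with 11.

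**Figure D1:**
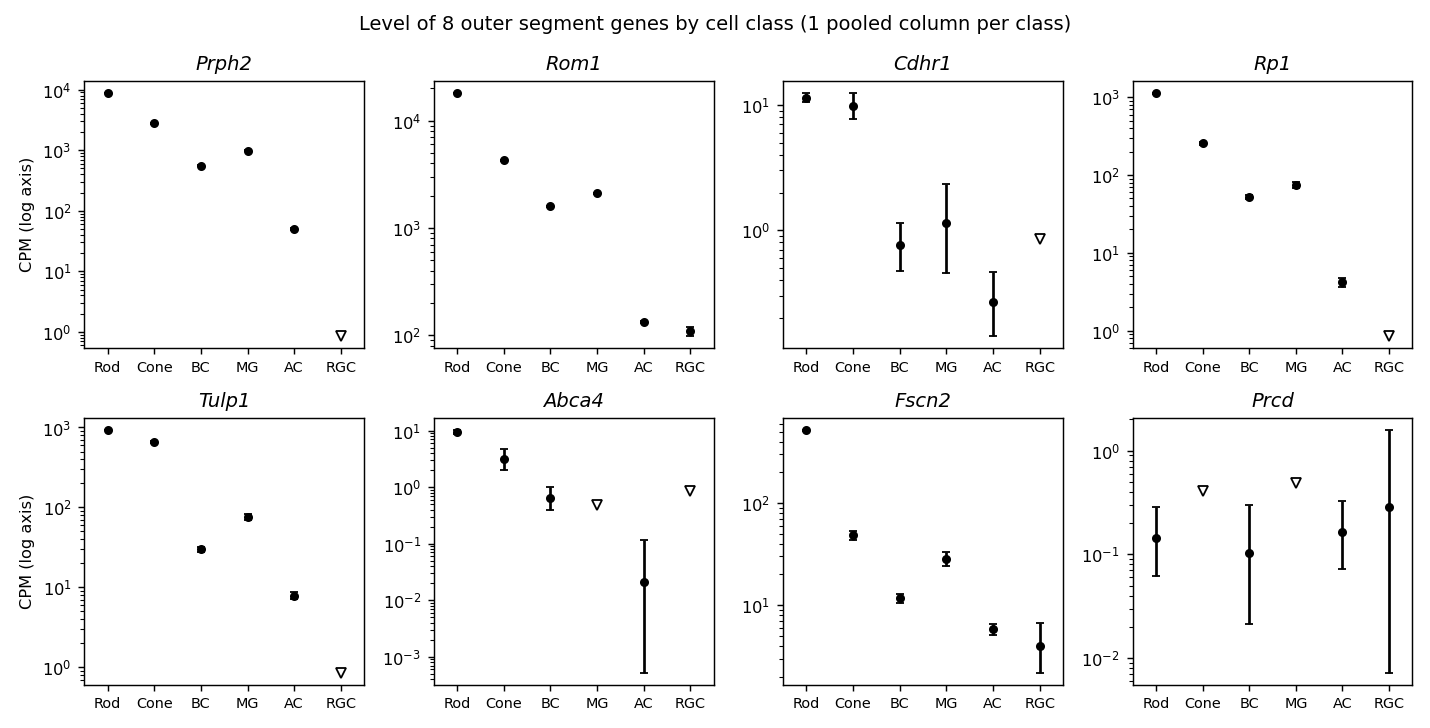
Level of each gene in CPM (log axis, drawn separately per panel) in the 6 class columns; points are pooled columns, bars are exact Poisson 95% intervals and open triangles mark the limit of 3 counts where the count was 0. Rods are the highest column in 7 panels and cones the next, though for Cdhr1 median-of-ratios scaling puts cones higher; Prcd has no peak in rods.

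The tetraspanin genes Prph2 (chr17:46910459-46924933, plus strand, GRCm38) and Rom1 (chr19:8927391-8929356, minus strand) held 29.7% and 61.5% of the group's counts. Both have 3 exons, and their middle exons are coding and have the same length of 247 bases. Aligned without gaps, 132 of 247 bases (53.4%) were identical, and the longest shared run was 9 bases. The middle exons are shown so that the partners can be compared base by base; capitals mark bases identical in both genes.
Prph2 exon 2: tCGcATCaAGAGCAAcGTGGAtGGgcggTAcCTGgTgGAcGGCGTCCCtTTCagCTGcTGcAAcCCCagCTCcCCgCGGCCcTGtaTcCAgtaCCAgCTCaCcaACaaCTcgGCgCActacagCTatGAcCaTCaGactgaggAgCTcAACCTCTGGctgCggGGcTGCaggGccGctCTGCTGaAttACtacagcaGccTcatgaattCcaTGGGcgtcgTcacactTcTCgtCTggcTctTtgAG
Rom1 exon 2: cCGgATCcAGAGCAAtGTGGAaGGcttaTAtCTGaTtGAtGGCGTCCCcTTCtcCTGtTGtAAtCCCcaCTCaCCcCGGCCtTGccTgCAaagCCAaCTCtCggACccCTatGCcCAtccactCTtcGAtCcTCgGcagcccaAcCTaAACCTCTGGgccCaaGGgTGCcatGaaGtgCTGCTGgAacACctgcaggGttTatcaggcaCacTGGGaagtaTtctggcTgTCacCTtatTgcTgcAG
These lie at chr17:46919764-46920010 and chr19:8927978-8928224.

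Prph2 stood at 8731 CPM in rods, 2785 in cones, 982 in Müller glia, 559 in bipolar cells and 49.2 in amacrine cells, and had 0 counts in ganglion cells. Rom1 stood at 17994.5 CPM in rods, 4282 in cones, 2100 in Müller glia, 1596 in bipolar cells, 133 in amacrine cells and 109 in ganglion cells. The order of the first 5 classes was thus the same for the pair, and no neighbouring intervals overlapped. The rod level was 3.14 times the cone level for Prph2 (95% interval 3.09 to 3.18) and 4.20 times for Rom1 (4.16 to 4.25). The balance between the partners differed by class. Prph2 counts were 48.5% of Rom1 counts in rods (48.4 to 48.7) and 65.0% in cones (63.9 to 66.2). The figure was 35.0% in bipolar cells, 37.0% in amacrine cells and 46.8% in Müller glia. Of the 5 classes with counts of both genes, cones thus had the most Prph2 per Rom1 count, and bipolar and amacrine cells, whose intervals overlapped, the least.

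Ganglion cells were the exception to the joint pattern. They had 383 Rom1 counts (109 CPM, 98.5 to 121) but 0 Prph2 counts, which with the exact interval allows at most 0.968% of the Rom1 count. All 5 rod markers were at 0 in that column. Among 24 genes with at least 1000 CPM in rods and more than 5 times their level in amacrine, bipolar and Müller columns, a group set after the values were seen, 18 had 0 counts in ganglion cells. Rom1 was among the 6 with counts, together with Unc119 (829 counts), Faim (603), Nxnl2 (28), Gngt1 (2) and Susd3 (1). The counts of Gngt1 and Susd3 lie under the limit of 3.

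The Prph2 and Rom1 counts each lay on 1 annotated transcript model with the complete intron chain. The Prph2 model kept all 1041 coding bases but ended 984 bases before the annotated transcript end, inside the 3′ untranslated region. The Rom1 model kept all 1056 coding bases and began 168 bases inside the annotated start. The remaining length of these ends cannot be compared between classes, because a model has 1 end for all of them.

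Cdhr1 (chr14:37077857-37098347, minus strand), the cadherin of nascent discs, was counted at a low level. There were 633 counts in rods (11.4 CPM, 10.5 to 12.3) and 72 in cones (9.85 CPM, 7.71 to 12.4). Bipolar cells had 22 counts, amacrine cells 13, Müller glia 7 and ganglion cells 0. The rod to cone ratio was 1.16 with an interval of 0.907 to 1.5001 that includes 1. Scaling columns by the median of ratios put it at 0.967. A difference between rods and cones was therefore not detectable for Cdhr1 at this depth. Its cone level was 86.3% of the rod level, the highest point of the 7 genes with counts in cones, though its interval (66.7 to 110) holds the 70.8% of Tulp1, and above the rod markers in that column. The model had all 17 exons and the full annotated length of 4332 bases.

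Prcd (chr11:116653534-116668389, plus strand), the small disc protein, had 20 counts in the whole table. Amacrine cells and rods had 8 each, bipolar cells 3 and ganglion cells 1, and cones and Müller glia had 0. The levels, from 0.103 to 0.285 CPM where counted, had intervals that all overlapped, so no order can be given. The first annotated exon overlaps 444 bases of Cygb, the cytoglobin gene on the opposite strand, which had 9935 counts, and whether the counting used strand is not given in the sources used here, so reads of the overlap may belong to either gene. Prcd was left out of the rod to cone comparison, which required 100 counts over both columns.

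Abca4 (chr3:122044443-122180123, plus strand), the rim transporter, had 523 counts in rods (9.43 CPM, 8.64 to 10.3) and 23 in cones (3.15 CPM, 2.00 to 4.72). Bipolar cells had 19 counts, amacrine cells 1, and Müller glia and ganglion cells 0. The rod level was 2.997 times the cone level (1.98 to 4.77). The annotated transcript has 50 exons and 7263 bases, and no model in the table came near it. The 11 Abca4 models were 610 to 3568 bases long, had 2 to 13 exons and held 2.65% to 27.9% of the coding sequence. None carried an Ensembl transcript identifier, so 100% of the 566 Abca4 counts were unannotated by that definition. Together the models touched 33 of the 50 exons, and exons 14, 15, 21 to 31 and 37 to 40 were in none.

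**Figure D2:**
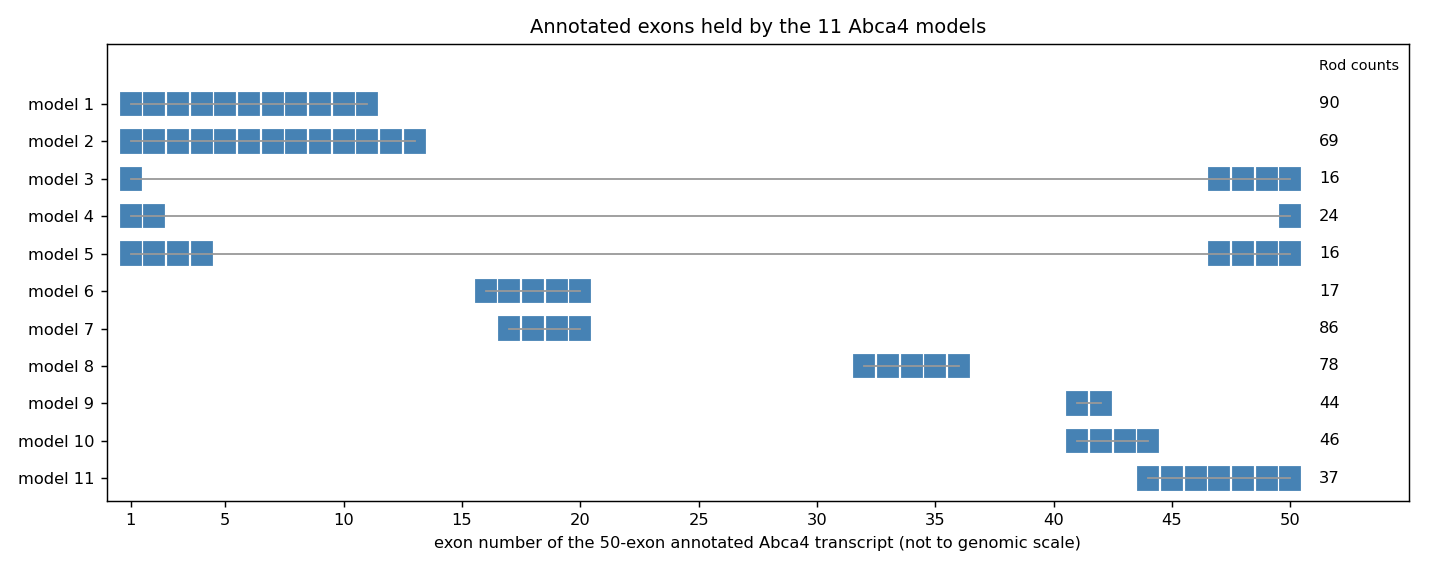
Exons of the annotated 50-exon Abca4 transcript (x axis, exon number) that each of the 11 deposited models overlaps by at least 1 base (blue boxes), with grey lines joining the boxes of a model and its count in the Rod column at the right. Most models fall into early, middle and late groups. A further 3 run from exon 1 to exon 50 but join an early exon to exon 47 or 50. No model holds all 50 exons.

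In 6 of the 11 models the intron chain was a continuous piece of the annotated chain, and these held 365 counts. A further 2 models with 134 counts used annotated junctions only, in a combination that was not a piece of the reference chain. In these 8 models 13.9% to 88.9% of the length lay in exons of the annotated transcript, the rest lying outside them. The model with most counts, which covers exons 17 to 20, had 86 counts in rods and 12 of the 19 in bipolar cells, with 25.9% of its length in annotated exons. The remaining 3 models, with 67 counts, joined an early exon directly to a late one through a junction between annotated splice sites that is not in GENCODE M21. They are printed because they are the sequences that would identify these joined molecules; the later exon is in capitals.
Abca4 exon 1 joined to exon 47: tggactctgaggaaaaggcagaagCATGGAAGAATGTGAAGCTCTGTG
Abca4 exon 2 joined to exon 50: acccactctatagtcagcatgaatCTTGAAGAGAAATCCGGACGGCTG
Abca4 exon 4 joined to exon 47: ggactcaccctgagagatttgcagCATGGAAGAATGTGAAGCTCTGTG
The earlier flanks end at chr3:122044589-122044612, chr3:122052972-122052995 and chr3:122055434-122055457, and the later ones begin at chr3:122170929-122170952 for exon 47 and chr3:122179714-122179737 for exon 50. The joins left out 6317, 6653 and 5941 bases of the annotated transcript, none a multiple of 3. They had 16, 31 and 20 counts, of which 16, 24 and 16 were in rods. In cones the exon 2 to exon 50 model had 6 of the 23 Abca4 counts, the most of any model there.

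Fscn2 (chr11:120361534-120368168, plus strand), the retinal actin bundler, had the largest rod to cone ratio of the 7 genes compared. It stood at 515 CPM in rods (509 to 521), 48.3 in cones, 28.4 in Müller glia, 11.7 in bipolar cells, 5.78 in amacrine cells and 3.99 in ganglion cells. Only the amacrine and ganglion levels had intervals that overlapped. The rod level was 10.7 times the cone level (9.60 to 11.9), and the cone level was 9.37% of the rod level (8.42 to 10.4), the nearest of the 7 genes to the rod marker range of 3.47% to 6.84% in cones. The main isoform, with all 5 exons and 1713 bases of the annotated transcript, had 84.7% of its summed CPM in rods.

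A second Fscn2 isoform split the classes differently. It had 61 counts in amacrine cells and 14 in ganglion cells, and 0 in rods, cones, bipolar cells and Müller glia. It made up 21.9% of Fscn2 counts in amacrine cells (17.2 to 27.2) and all 14 in ganglion cells, where the annotated isoform had 0. In rods it had 0 of 28571 counts, and the exact interval of the share reached 0.0129%. No model of this isoform was found among the deposited transcript models, so its exons were not analysed here. Amacrine and ganglion cells thus shared an isoform with no count in the photoreceptor columns. With 14 counts, ganglion cells were under the minimum of 20 for calling a switch of isoform.

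Rp1 (chr1:3999557-4409241, minus strand), the axonemal microtubule protein, stood at 1120 CPM in rods, 256 in cones, 75.0 in Müller glia, 52.1 in bipolar cells and 4.17 in amacrine cells, with 0 counts in ganglion cells. The rod level was 4.38 times the cone level (4.18 to 4.59), and its count kept nearly the same proportion to Rom1 in rods (6.22%, 6.17 to 6.28) and cones (5.97%, 5.69 to 6.26). The Rp1 model had the intron chain of the annotated 4-exon transcript but only 1232 of its 6869 bases. It ended in the coding part of exon 4, which is 5946 bases long, after 309 of them, and held 17.6% of the coding sequence. The bases around the model end are printed to show where it stops; lower case is inside the model and capitals are annotated exon beyond it.
Rp1 model end: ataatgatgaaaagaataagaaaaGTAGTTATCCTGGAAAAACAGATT
The stretch lies at chr1:4349759-4349806. The last 20 bases of the model held 13 A, and 1.18% of all 20-base windows of the exon held as many or more. The 20 bases beyond the end held 8 A, which 41.1% of windows reached, the median being 7. The signal AATAAA was not found in the last 50 bases. All 66135 Rp1 counts lay on this model, and whether the molecules extended further was not tested.

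Tulp1 (chr17:28351515-28365222, minus strand), the trafficking factor, was the abundant gene with the smallest difference between photoreceptors. It stood at 926 CPM in rods (918 to 934), 656 in cones (637 to 674), 75.5 in Müller glia, 30.0 in bipolar cells and 7.83 in amacrine cells, with 0 counts in ganglion cells. The rod level was 1.41 times the cone level (1.37 to 1.45). Tulp1 counts were 15.3% of Rom1 counts in cones (14.9 to 15.8), against 5.14% in rods (5.10 to 5.19) and 1.88% in bipolar cells. The share was 5.89% in amacrine cells (5.30 to 6.54), above that of rods, and 3.59% in Müller glia.

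Both Tulp1 models lacked an Ensembl identifier, so 100% of 57816 Tulp1 counts lay outside the annotation by that definition. The 14-exon model differed from the annotated 15-exon transcript by the absence of exon 9, a coding exon of 6 bases, and by an end 4 bases short. The resulting junction from exon 8 to exon 10 was in none of the 14 annotated Tulp1 transcripts, 4 of which hold exon 9. The 13-exon model lacked exon 4 as well, a coding exon of 153 bases that 3 annotated transcripts hold and 1 skips. Both lengths are multiples of 3. The junctions are printed because they carry the differences in exons between the models and the reference; the exon in question is in capitals.
Tulp1 exon 9 included: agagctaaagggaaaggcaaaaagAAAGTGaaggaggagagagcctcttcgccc
Tulp1 exon 9 skipped: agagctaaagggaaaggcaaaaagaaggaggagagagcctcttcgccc
Tulp1 exon 4 included: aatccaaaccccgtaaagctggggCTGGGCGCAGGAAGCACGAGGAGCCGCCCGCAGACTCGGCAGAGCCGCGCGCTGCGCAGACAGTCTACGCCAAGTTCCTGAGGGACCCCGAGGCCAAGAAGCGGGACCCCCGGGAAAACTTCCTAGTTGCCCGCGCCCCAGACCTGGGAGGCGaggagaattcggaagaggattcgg
Tulp1 exon 4 skipped: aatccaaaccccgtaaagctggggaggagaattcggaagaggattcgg
Exon 9 lies at chr17:28359319-28359324 and exon 4 at chr17:28364231-28364383. Over all deposited models, 4 distinct internal exons of at most 6 bases were found, and 133 in the whole of GENCODE M21. The reference also holds genes without a deposited model, so these numbers give no rate of small exons missed. Whether molecules with exon 9 were read and assigned to either Tulp1 model was not tested.

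The share of Tulp1 counts on the model without exon 4 varied by class. It was 3.67% in rods (3.51 to 3.84), 2.67% in cones (2.23 to 3.17) and 2.76% in bipolar cells (1.77 to 4.07). Müller glia had 8.21% (5.87 to 11.1) and amacrine cells 1.06% (0.289 to 2.69). The rod and cone intervals did not overlap, nor did those of Müller glia with any of the others. In Müller glia 38 of 463 counts carry this share, and that column also holds rod markers at up to 7.86% of their rod level and the pigment epithelium markers. Their part in the share was not tested.

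**Figure D3:**
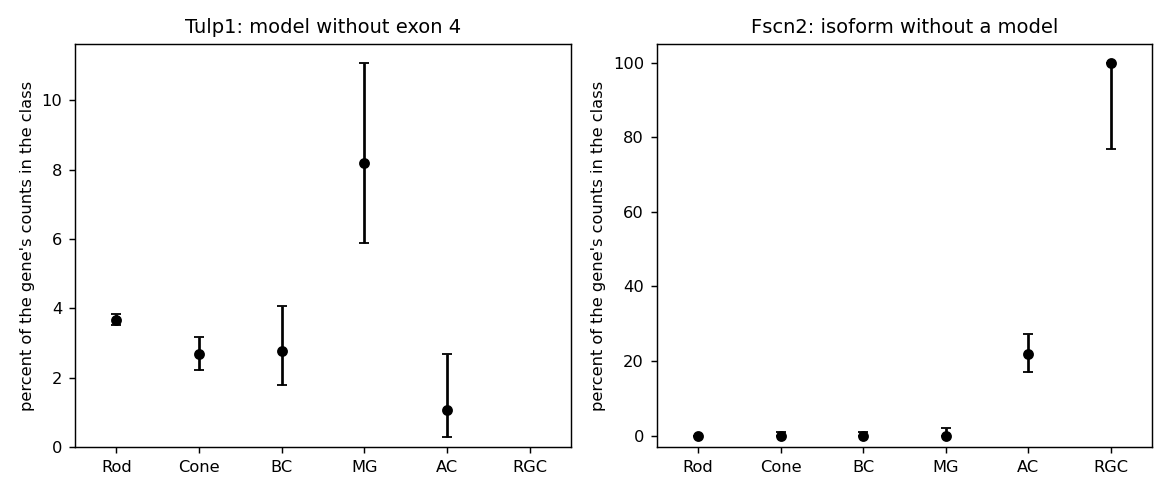
Percent of a gene's counts in each class on the Tulp1 model without exon 4 (left, no point for ganglion cells, which had 0 Tulp1 counts) and on the Fscn2 isoform without a model (right). Bars are exact Clopper-Pearson 95% intervals; Müller glia stand highest for Tulp1 at 8.21%, and only amacrine and ganglion cells have counts of the Fscn2 isoform.

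Rods were above cones by more than 2-fold for 5 of the 7 genes with enough counts, and the same held for 27.3% of 7735 genes. The 5 were Prph2, Rom1, Rp1, Abca4 and Fscn2, and the others were Cdhr1 and Tulp1. For Abca4 the lower bound of 1.98 lies under 2. The median ratio of the 7 was 3.14, beside 1.33 over all genes and 1.80 over 35 of 38 listed genes of phototransduction and the outer segment. Of these 35 genes, 15 were above 2-fold in rods and 9 above 2-fold in cones. The largest ratios in the list were those of the exchanger Slc24a1 (58.4, 16.1 to 483, from 2 cone counts), the rod phosphodiesterase subunit Pde6b (39.6, 32.4 to 48.9) and the rod channel subunit Cnga1 (28.8, 20.96 to 40.7). The smallest were those of the cone channel subunits Cnga3 (0, 0 to 0.00490, from 0 rod counts) and Cngb3 (0.0103, 0.00552 to 0.0178). The cone opsin Opn1mw came next (0.0141, 0.0138 to 0.0143). The ratios of the 7 structural genes, 1.16 to 10.7, lay inside this range.

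**Figure D4:**
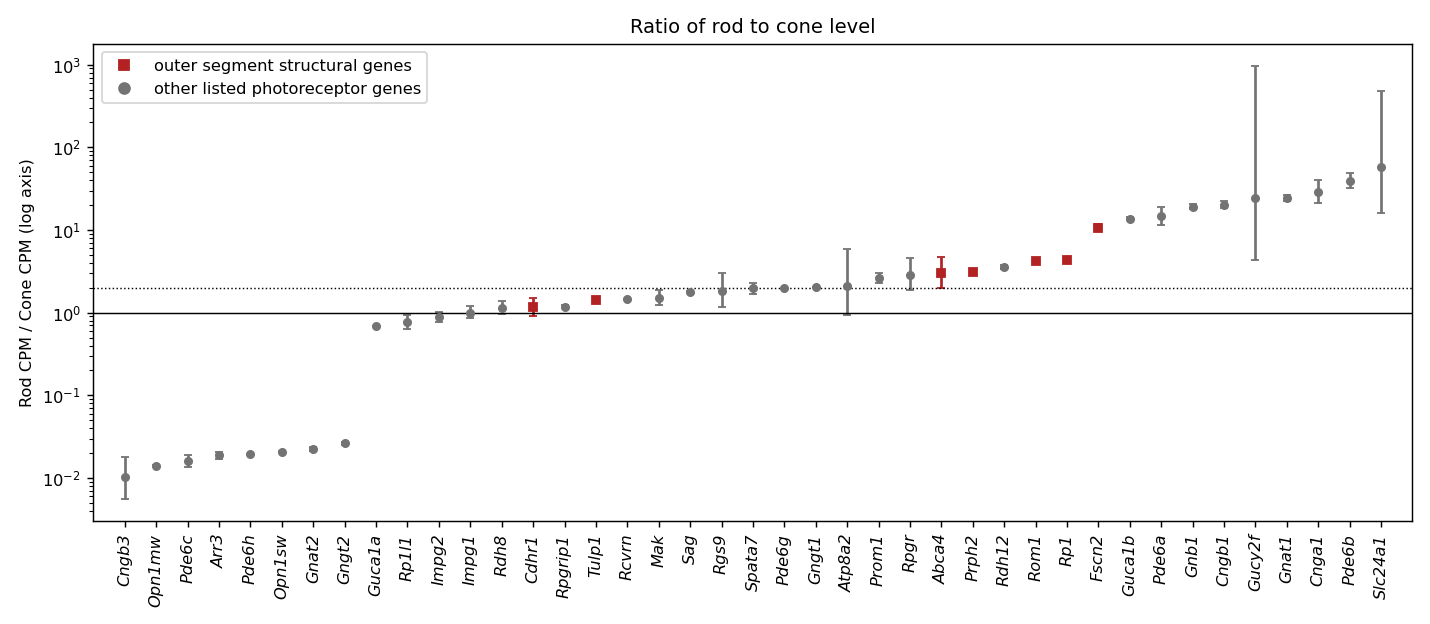
Rod CPM divided by cone CPM (log axis) for 7 outer segment genes (red squares) and 34 other listed photoreceptor genes (grey circles), sorted; bars are exact 95% intervals for counting error, the solid line marks 1 and the dotted line 2. The 7 genes lie from 1.16 (Cdhr1, 0.967 under median-of-ratios scaling) to 10.7, between cone genes such as Opn1mw at the left and rod genes such as Pde6b at the right; Cnga3 had 0 rod counts and is not drawn.

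Each gene's level outside rods can be read beside the rod markers of the same column. In cones, 7 of the 8 genes stood above the highest rod marker, at 9.37% to 86.3% of their rod level, and Prcd was at 0. In bipolar cells all 8 stood above the highest rod marker of 2.11%. Rom1 was at 8.87% there, Prph2 at 6.40%, Rp1 at 4.65%, Tulp1 at 3.24% and Fscn2 at 2.26%. The Fscn2 interval (2.02 to 2.52) and that of Prcd (3 counts) include the highest marker. In Müller glia 4 genes exceeded the highest marker of 7.86%: Rom1 (11.7%), Prph2 (11.2%), Cdhr1 (10.00%, 7 counts) and Tulp1 (8.16%). The intervals of Cdhr1 and Tulp1 include that marker. In amacrine cells 3 genes exceeded the highest marker of 0.969%, namely Cdhr1 (2.36%, 13 counts), Fscn2 (1.12%) and Prcd (8 counts), while Prph2 was at 0.563% and Rom1 at 0.739%. The 5 markers do not bound all rod genes. Of the listed genes with high rod to cone ratios, a pair picked out after its values were seen went past them: the rod channel subunit Cngb1 stood at 13.8% of its rod level in bipolar cells, above every outer segment gene there but Prcd, and the cyclase activator Guca1b at 2.18% in bipolar cells, 7.35% in cones and 8.71% in Müller glia, the last above Tulp1. Listed genes with lower ratios, also picked after their values were seen, went past the markers too. Gngt1 stood at 48.98% in cones, 14.3% in bipolar cells and 11.6% in Müller glia, and Pde6g at 49.9%, 2.72% and 10.6%. In cones these lie above Prph2 (31.9%), Rom1 (23.8%) and Rp1 (22.8%). The high-ratio gene Pde6b stayed under the highest marker, at 2.53%, 1.68% and 3.04%. A level above the 5 markers is thus not particular to the outer segment genes. The part of rod RNA in these columns was not tested.

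**Figure D5:**
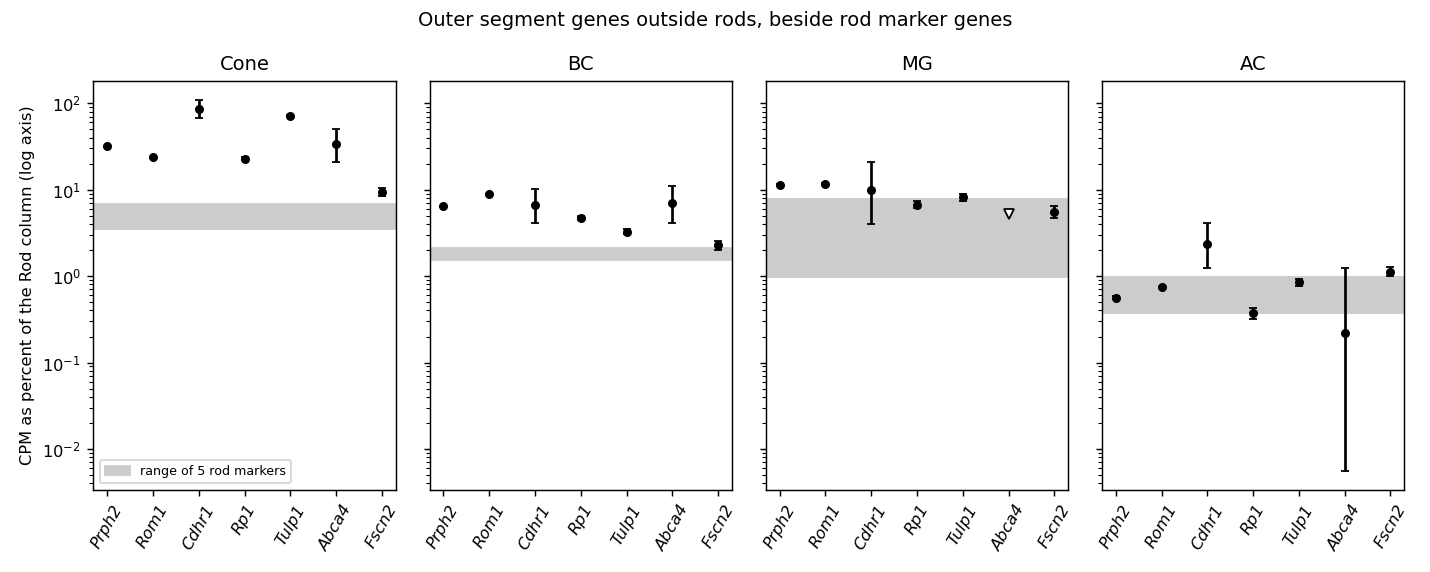
Level of 7 outer segment genes in 4 classes as percent of their level in the Rod column (log axis), with exact 95% intervals; the grey band spans the 5 rod markers in that class, and the open triangle marks the limit of 3 counts for Abca4 in Müller glia. All 7 genes lie above the band in cones and bipolar cells, while in Müller glia and amacrine cells most lie in or near it.

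Isoform choice could be compared between photoreceptors for 3 genes. Of the 3 genes with more than 1 isoform, 2 had the same most abundant isoform in rods and cones, Tulp1 and Fscn2, beside 89.2% of all such genes. Abca4 differed, with the exon 1 to 11 model on top in rods (90 of 523 counts, 17.2%, 14.1 to 20.7) and the exon 2 to exon 50 model in cones (6 of 23 counts, 26.1%, 10.2 to 48.4). In rods the exon 17 to 20 model was close behind with 86 counts (16.4%, 13.4 to 19.9), so the order of these models in rods is within counting error. In cones the exon 4 to exon 47 model followed with 4 of 23 counts (17.4%, 4.95 to 38.8). The order of the models in cones is thus within counting error as well. A switch between any pair of classes, meaning another top isoform and a share that moved by at least 50 percentage points with at least 20 counts in each class, was called for 0 of these 3 genes and for 24.96% of 7475 genes. Restricted isoforms were those with a minimum of 10 counts for which 1 class supplied 80% or more of the CPM summed over classes. This held for 6 of the 20 isoforms, close to the 26.97% of all isoforms. All 6 were restricted to rods, and 6.74% of all isoforms were. They were the main Fscn2 isoform and 5 Abca4 models with 16 to 92 counts. These 5 models stood at only 0.289 to 1.62 CPM in rods. A count of 0 allows up to 0.411 CPM in cones, 0.489 in Müller glia and 0.855 in ganglion cells. At this depth the restriction of the Abca4 models to rods is therefore not settled.

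Over the group, 14 of 20 isoforms had no Ensembl identifier, and they held 3.29% of the counts (3.26 to 3.31), beside 5.58% over all Ensembl genes. Of these 58457 counts, Tulp1 supplied 57816. Prph2, Rom1, Cdhr1, Rp1 and Prcd had 0 unannotated counts, Abca4 had 566 and Fscn2 75 (0.252%).

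The genes most like the group were ranked by the Pearson correlation of log2(CPM + 1) over the 6 classes with the mean of the 8 genes, among 5220 genes with at least 1000 counts. They were the retinol dehydrogenase Rdh12 (r = 0.998), Haus8 (0.997), Apobec2 (0.996), Meig1 (0.996) and Desi2 (0.995). Rdh12 ran from 650 CPM in rods and 184 in cones to 0 in ganglion cells. Haus8 shared the order over a far narrower range, from 42.9 CPM in rods to 20.5 in ganglion cells. The 6 points are class columns that name no library and may share libraries, so these values are descriptions. Within the group, the correlation of a gene with the mean of the other genes ran from 0.848 for Abca4 to 0.993 for Rp1, and was -0.62 for Prcd.

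Promoter sequences from 250 bases before to 50 after the start, from RefSeq (GRCm38.p6), were found for 7 of the 8 genes, all but Rp1. The core TAATCC (or GGATTA on the other strand), which photoreceptor homeodomain factors such as Crx recognise, was in 2 of the 7, Abca4 and Prcd, and in 7.16% of 27025 promoters. The letters TGCTGA (or TCAGCA), from the Maf-type site that Nrl recognises, were in 0 of 7 and in 19.1% of all. The Abca4 match begins 58 bases before the start and is shown with the motif in capitals.
Abca4 promoter GGATTA: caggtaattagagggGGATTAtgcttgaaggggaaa
It lies at chr3:122044387-122044422, on the plus strand. In Prcd the match begins at the annotated start base.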

How the data were processed

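The authors deposited whole-number counts per isoform for 6 cell classes and transcript models whose source field names FLAIR, per the file contents. The build mm10 comes from the submitters' processing notes, and 94.4% of 122601 model junctions were in GENCODE M21 (GRCm38). The aligner, its settings, cell calling, doublet treatment and molecule counting are not given in the sources used here, and several counts may come from 1 molecule. The columns name no library and 0 columns were left unused. Counts were summed per gene and scaled by column totals. Isoforms with an Ensembl transcript identifier were called annotated, and models were compared with the M21 transcript by exons and introns. Intervals are exact (Poisson, Clopper-Pearson, conditional binomial) at 95%. The rules of size were tried on simulated data with independent counts and large planted differences. Genes with few counts in the whole table were not among those simulated. The genes, lists, markers and rules were chosen with earlier results of these data known. All 8 genes were named; of their isoforms, the most abundant, the most abundant unannotated and those with at least 1% of the gene in rods or 5% in cones were eligible, and of 38 listed genes the 3 highest and lowest ratios. Results for 1 further gene of these lists are not reported here. Scalings by trimmed mean of M-values, median of ratios, count minimums, other cut-offs and summed introns were tried. Python 3.11.15, numpy 2.4.6, pandas 2.3.3, scipy 1.17.1 and matplotlib 3.10.9 were used.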

Additional observations from a re-analysis of the deposited data

How the results depend on the processing

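Of 21 alternatives over 6 results, 19 stayed within 1.5 times the reported count or within its interval. Some of the 19 could not have moved. Every isoform of these genes had at least 16 counts, so requiring 10 counts per isoform, or no minimum, kept the same isoforms. A minimum of 100 counts per class could only remove switches, and 0 had been called. These settings therefore do not bear on how stable the results are. The number of genes switched between any pair of classes rose from 0 to 2 with a minimum of 10 counts per class: Fscn2, between ganglion cells and each other class, and Abca4, between bipolar cells and cones. Restricted isoforms fell from 6 to 3, all of Abca4, when 95% of summed CPM was required; the main Fscn2 isoform was then no longer called. By construction, annotated isoforms only removed Tulp1 and Abca4. Scaling by the median of ratios shifted the rod to cone ratio of all genes by -0.26 on the log2 scale and turned that of Cdhr1 from 1.16 to 0.967, so 6 genes in place of 7 were highest in rods. No paired analysis was possible because counts were pooled by class with no replicate numbers, and for that reason leaving out a library was not run. Depth limits Prcd, Cdhr1 outside photoreceptors, and Abca4 outside rods.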
